A study of Mus musculus with 12 samples.

Results

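The 7 genes H2-Aa, H2-Ab1, H2-Eb1, Cd74, H2-DMa, H2-DMb1 and Ciita make and load the major histocompatibility complex (MHC) class II molecules, and they were followed through injured and intact mouse sciatic nerve. They were chosen by name, as 7 of the 38087 gene models in the deposited count table, and all 7 passed the filter on low counts that left 22384 models for testing. The nerves formed 4 groups of 3 libraries each, which were dKO nerve 5 days after transection, control nerve 5 days after transection, dKO intact nerve and control intact nerve. The dKO mice had the genotype Dhh-Cre+:Tfebflox/flox;Tfe3KO, and the control mice had the genotype Dhh-Cre-:Tfebflox/flox;Tfe3+. Every group thus carried the floxed Tfeb alleles, Tfe3 was lost in all cells of dKO mice, and Tfeb was to be deleted where Cre was made under Dhh, which Schwann cells and their precursors express. The Cre is thus not directed at macrophages, dendritic cells or B cells, whereas the loss of Tfe3 covers them too. The injured material was the stump beyond the cut, and the intact nerve was the uncut one of the other side. The outer sheath was stripped from intact nerves, and the labels state no such step for injured ones. The labels used here give no age, sex or strain, and class II genes differ in sequence between mouse strains.

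MHC class II molecules show peptides from taken-up material to CD4+ T cells. The H2-Aa and H2-Ab1 proteins pair as the A molecule and H2-Eb1 is the beta chain of the E molecule, the invariant chain Cd74 escorts these dimers to endosomes and blocks their groove, and H2-DM, built from H2-DMa and H2-DMb1, exchanges the last fragment of Cd74 for peptide. Ciita, the class II coactivator, has no DNA contact of its own and joins the RFX, CREB and NF-Y factors on a shared promoter arrangement, the X box and Y box. In peripheral nerve, macrophages and dendritic cells are the usual carriers of class II, and Schwann cells can carry it under inflammation.

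By GENCODE M21 on GRCm38, 5 of the 7 genes lie within 197134 bases of chromosome 17, at chr17:34119541-34316674. H2-DMa, H2-DMb1, H2-Ab1 and H2-Eb1 are on the plus strand and H2-Aa is on the minus strand. Ciita lies outside this cluster, at chr16:10480059-10528418, as does Cd74. The RefSeq table of promoter windows on GRCm38.p6 covered 4 of the 7 genes, namely H2-Aa, H2-Eb1, H2-DMa and H2-DMb1. H2-Ab1, Cd74 and Ciita were not looked at in this way. Each window ran from 250 bases before the annotated start to 50 after it, and both strands were searched for a core of the X box, spelled as AG, 2 bases of any kind, AC, 1 base of any kind and GATG, and for ATTGG, the core of the Y box. The matches of the 2 cores did not overlap each other. The 150 bases before the start are shown for 1 gene that rose after injury with both cores, 1 that fell with both cores, and 1 that rose with the Y core alone. Sequences run 5′ to 3′ on the strand of the gene, and capitals mark the cores, CCAAT being ATTGG on the opposite strand. They are H2-Eb1 at chr17:34305717-34305866 on the plus strand, H2-DMb1 at chr17:34153041-34153190 on the plus strand, and H2-Aa at chr17:34287824-34287973 on the minus strand.
H2-Eb1: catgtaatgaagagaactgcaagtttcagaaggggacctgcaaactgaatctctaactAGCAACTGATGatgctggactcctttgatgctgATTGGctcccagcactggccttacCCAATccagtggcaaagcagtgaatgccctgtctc
H2-DMb1: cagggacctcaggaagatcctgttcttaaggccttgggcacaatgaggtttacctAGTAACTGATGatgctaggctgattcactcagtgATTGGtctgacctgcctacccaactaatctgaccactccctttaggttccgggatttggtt
H2-Aa: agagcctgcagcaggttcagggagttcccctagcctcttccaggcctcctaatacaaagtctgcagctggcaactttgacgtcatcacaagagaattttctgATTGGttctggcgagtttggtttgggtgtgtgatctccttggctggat

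In H2-Eb1 the X core began 92 bases and the Y core 59 bases before the start, with 22 bases between them. H2-DMb1 had nearly the same layout, with the X core 95 bases and the Y core 61 bases before the start and 23 bases between them. H2-Aa held the Y core 48 bases before the start and no match to the X core letters. Neither of the 2 H2-DMa windows held the X core, and 1 of them held ATTGG, 198 bases before its start. Of all 32851 windows in the table, 0.968% held the X core, 37.4% the Y core and 0.387% both. A match describes these letters only, and no binding was measured.

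Libraries held 15430999 to 35845371 counts. All 3 injured dKO libraries and injured control replicate 4 stood apart as a second library set by reads on 174 to 370 olfactory receptor genes at equal depth against 52 to 80 in the other 8 libraries. This set and the genotype can hardly be told apart at 5 days, since only 1 control library belongs to it. Control replicate 1 at 5 days had an Xist count of 10712, which marks female tissue, against at most 23 in the other 11 libraries. Its counts of the Y-linked genes Ddx3y, Uty, Eif2s3y and Kdm5d summed to 244, against 1907 to 3724 in the others. Whether this library held RNA of a single sex was not tested. Tfe3, as a check of the labels, averaged 51.9 ± 2.21 CPM in dKO and 61.4 ± 6.35 CPM in control nerve at 5 days (SD, n = 3 each). In intact nerve it averaged 45.7 ± 2.11 CPM in dKO and 59.8 ± 2.83 CPM in control mice, and Tfeb averaged 17.9 ± 1.35 CPM in dKO and 24.5 ± 2.21 CPM in control mice. At 5 days Tfeb averaged 21.2 ± 7.91 CPM in dKO and 20.2 ± 3.34 CPM in control nerve, so its level did not follow the genotype label there. Neither gene passed the test between genotypes, and counts over a whole gene do not show the loss of single exons. CPM here are edgeR's counts relative to library totals scaled by TMM factors, and the labels do not say whether replicates were separate animals, so p-values measure the spread between these libraries.

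The 7 genes differed in opposite directions between injured and intact nerve. In both genotypes the 3 class II chains, the invariant chain and Ciita were higher in injured nerve, and both H2-DM genes were lower. In dKO nerve 5 of 7 rose and 2 of 7 fell, against a background of 22% of all tested genes called higher and 22.6% called lower. In control nerve the counts were also 5 and 2, against 24.4% called higher and 22.4% called lower. Injured and intact libraries overlapped for 0 of the 7 genes in either genotype. Of all tested genes, 31.1% lay higher and 29.9% lower without overlap in dKO nerve, and 27.8% and 25.5% in control nerve. The median log2 change of the 7 was 2.29 in dKO and 1.70 in control nerve, beside 0.05 and 0.09 over all tested genes, and this median hides the split in direction. In bulk nerve, fewer cells of a type and less RNA per cell cannot be told apart. Removal of the outer sheath is stated for intact nerves only. Its part therefore cannot be told apart from that of transection, here or in the later comparisons of injured with intact nerve.

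**Figure D1:**
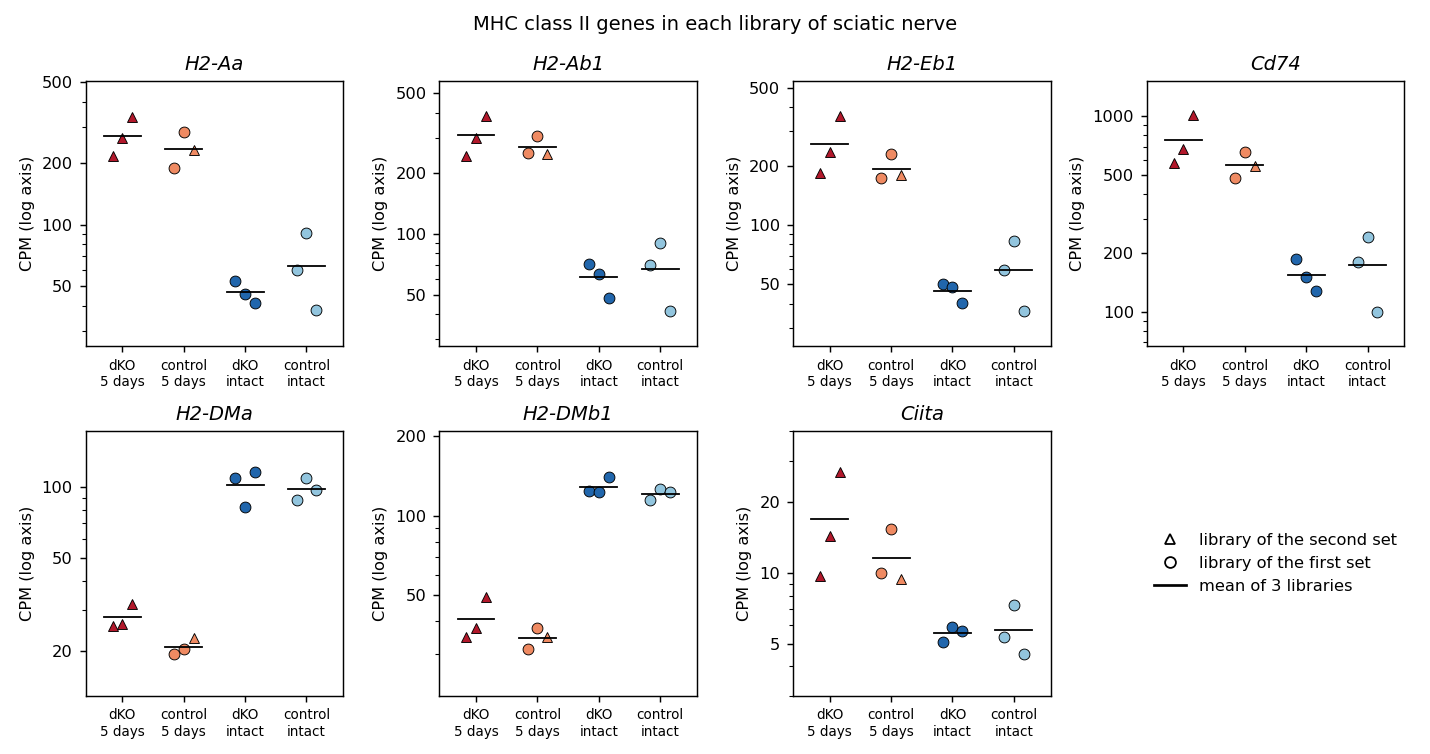
CPM of each of the 7 genes (log axis) in every library, by group, with points for libraries (triangles for the second library set) and bars for group means. The 3 chains, Cd74 and Ciita sit higher in both injured groups, and H2-DMa and H2-DMb1 sit lower there.

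H2-Aa, the alpha chain of the A molecule, had 218, 264 and 336 CPM in dKO nerve at 5 days, against 52.7, 45.8 and 41.3 CPM in dKO intact nerve. Every injured library was far above every intact one. The log2 change was 2.55 (SE 0.29, adjusted p 3.45e-05, edgeR). In control mice H2-Aa had 190.1, 283 and 233 CPM at 5 days, against 60.1, 90.8 and 38.2 CPM in intact nerve. The injured libraries again stood apart, and the intact ones spread more widely than in dKO mice, with replicate 2 the highest and replicate 3 the lowest. The log2 change in control nerve was 1.90 (SE 0.28, adjusted p 0.000212, edgeR).

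H2-Ab1, its beta chain partner, had 244, 298 and 384 CPM in injured and 71.3, 63.6 and 48.0 CPM in intact dKO nerve. In control mice it had 251, 307 and 249 CPM in injured and 70.2, 89.8 and 41.6 CPM in intact nerve. The log2 changes were 2.34 (SE 0.27) in dKO and 2.00 (SE 0.26) in control nerve, with adjusted p of 2.66e-05 and 6.46e-05 by edgeR. Within a library the 2 chains of the A molecule stayed close, at 1.12 to 1.14 H2-Ab1 counts per H2-Aa count in injured dKO nerve and 1.07 to 1.32 in injured control nerve. The same ratio was 1.16 to 1.39 in dKO intact and 0.989 to 1.17 in control intact nerve.

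H2-Eb1, the beta chain of the E molecule, had 184, 237 and 361 CPM in injured and 50.4, 48.6 and 40.3 CPM in intact dKO nerve. In control mice it had 173, 229 and 179 CPM in injured and 59.4, 82.8 and 36.5 CPM in intact nerve. Its log2 change was 2.49 (SE 0.31, adjusted p 8.48e-05) in dKO and 1.70 (SE 0.30, adjusted p 0.00084) in control nerve by edgeR. The alpha chain of E appears in the table only as H2-Ea-ps, with 0 to 4 counts in any library, and strains without a working E alpha chain do not show E at the cell surface. The levels of H2-Eb1 therefore describe RNA alone.

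Cd74, the invariant chain, had the highest mean of the 7 genes in each group, with 578, 679 and 1012 CPM in injured and 186, 151 and 127 CPM in intact dKO nerve. In control mice Cd74 had 485, 655 and 560.2 CPM in injured and 181, 240.4 and 100.3 CPM in intact nerve. Injured and intact libraries did not overlap in either genotype, and in intact dKO replicate 4 and intact control replicate 3 its level was below that of H2-DMb1. Its log2 change was 2.29 (SE 0.31, adjusted p 0.000146) in dKO and 1.71 (SE 0.31, adjusted p 0.000846) in control nerve by edgeR. A microRNA gene within Cd74, Mir5107, lies on the same strand and shares 12 exonic bases with it. Mir5107 was assigned 68 to 921 counts, and whether these reads came from Cd74 transcripts was not tested.

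H2-DMa, the alpha chain of the peptide exchanger H2-DM, went the other way. It had 25.7, 26.0 and 31.8 CPM in injured and 109, 82.1 and 115 CPM in intact dKO nerve, a log2 change of -1.88 (SE 0.14, adjusted p 1.17e-07, edgeR). In control mice H2-DMa had 19.4, 20.5 and 22.8 CPM in injured and 87.6, 109 and 96.6 CPM in intact nerve, a log2 change of -2.22 (SE 0.14, adjusted p 1.55e-08, edgeR). All injured libraries were thus well below all intact ones, with a narrow spread in each group.

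H2-DMb1, the beta chain of H2-DM, had 34.7, 37.6 and 49.3 CPM in injured and 124, 123 and 140.2 CPM in intact dKO nerve. In control mice it had 31.3, 37.7 and 34.9 CPM in injured and 115, 126 and 123 CPM in intact nerve. The log2 change was -1.67 (SE 0.13, adjusted p 1.39e-07) in dKO and -1.81 (SE 0.13, adjusted p 4.24e-08) in control nerve by edgeR. H2-DMb2, a near copy of H2-DMb1 that also encodes a DM beta chain, fell as well, by 1.26 on the log2 scale in dKO (adjusted p 1.65e-05) and by 1.41 in control nerve (adjusted p 4.27e-06). Reads that fit both copies could be split between them, so the share of each is uncertain. H2-DMb2 had 0.164 to 0.199 counts per H2-DMb1 count in injured and 0.135 to 0.141 in intact dKO nerve.

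The counting strand is not given in the sources used here, and 2 of the 7 genes share exons with a gene on the opposite strand. H2-DMa shares 360 exonic bases with Brd2, which had 3218 to 10057 counts per library and fell by 0.73 on the log2 scale in dKO (SE 0.0996, adjusted p 3.68e-05, edgeR) and by 0.66 in control nerve (adjusted p 7.41e-05). Reads of Brd2 counted for H2-DMa cannot be told apart from its own, and their part in the fall of H2-DMa was not tested. The annotation lists no gene that overlaps H2-DMb1. Ciita shares 329 exonic bases with Dexi, which had 335 to 981 counts and fell by 0.52 in dKO (adjusted p 0.00235) and by 0.69 in control nerve (adjusted p 0.000196), opposite to Ciita.

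Ciita, the coactivator, was the least abundant of the 7 genes and the least certain. It had 9.66, 14.4 and 26.8 CPM in injured and 5.09, 5.88 and 5.67 CPM in intact dKO nerve, with a log2 change of 1.60 (SE 0.33, adjusted p 0.00128, edgeR). In control mice it had 9.99, 15.3 and 9.41 CPM in injured and 5.34, 7.32 and 4.50 CPM in intact nerve, with a log2 change of 1.02 (SE 0.33, adjusted p 0.019, edgeR). The dKO libraries at 5 days spread widely, with replicate 4 the highest. In control nerve the call was lost without replicate 2 at 5 days (log2 change 0.76, adjusted p 0.0941), without intact replicate 1 (0.88, adjusted p 0.0859) and without intact replicate 3 (0.87, adjusted p 0.0798).

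**Figure D2:**
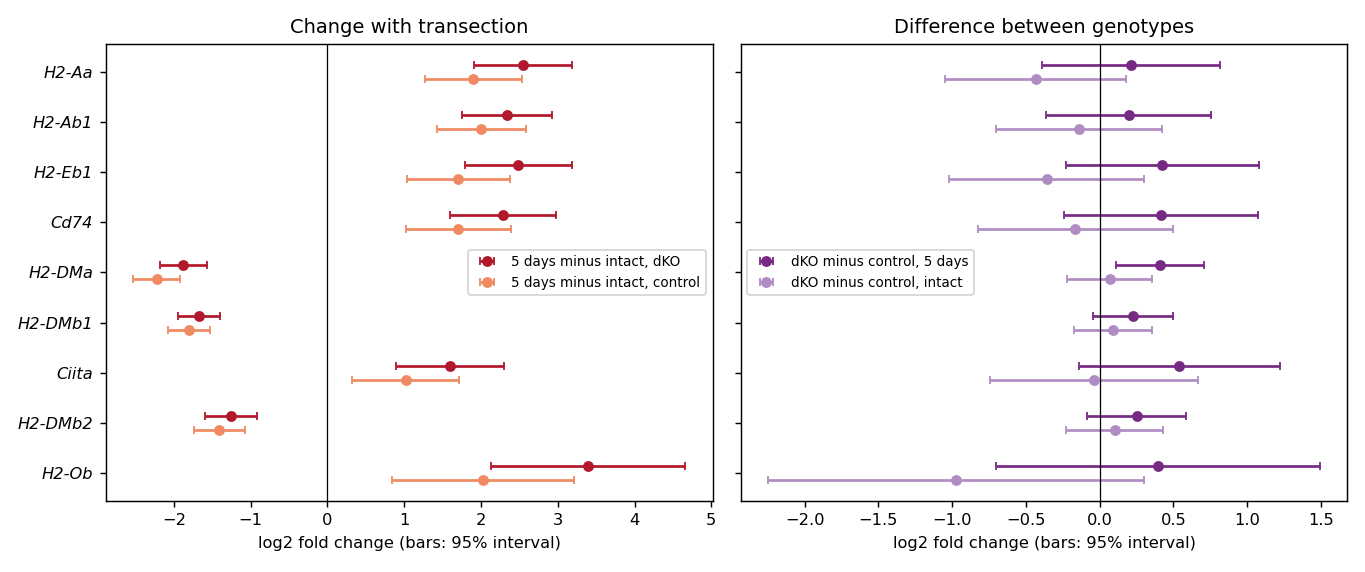
Log2 change of each of the 7 genes and of H2-DMb2 and H2-Ob with its 95% confidence interval from edgeR, for injury in dKO and control nerve and for dKO against control nerve at 5 days and intact. Injury intervals lie above 0 for H2-Aa, H2-Ab1, H2-Eb1, Cd74 and Ciita and below 0 for H2-DMa and H2-DMb1, and of the genotype intervals that of H2-DMa at 5 days lies above 0.

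The split between chains and editor was large when both were counted in the same library. For every 100 counts of H2-Aa, H2-Ab1 and H2-Eb1 summed, H2-DMa and H2-DMb1 summed to 9.36, 7.97 and 7.51 counts in injured dKO nerve, against 134, 129.7 and 197 counts in intact dKO nerve. In control mice the ratio was 8.25, 7.11 and 8.73 in injured nerve, against 107, 89.1 and 189 in intact nerve. Every injured library thus held fewer than 10 H2-DM counts per 100 chain counts, and the intact ones held nearly as many H2-DM as chain counts or more. The spread within the injured groups was small beside the spread within the intact groups. This ratio needs no scaling between libraries, and with 3 libraries against 3 an exact permutation test cannot go below a p of 0.1.

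**Figure D3:**
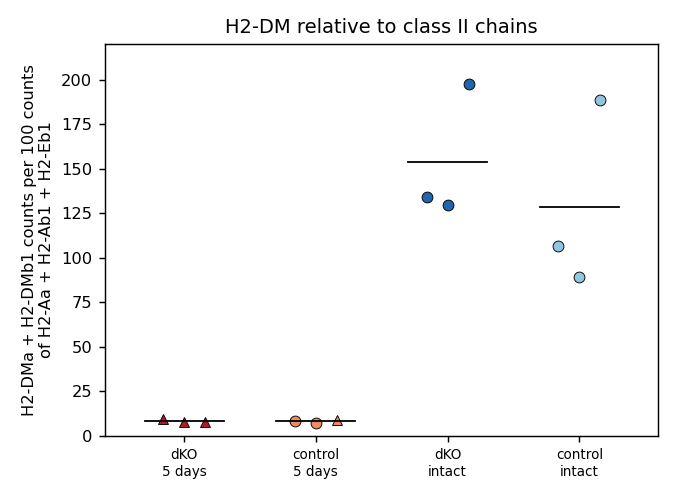
Counts of H2-DMa and H2-DMb1 per 100 counts of H2-Aa, H2-Ab1 and H2-Eb1, with points for libraries (triangles for the second library set) and bars for group means. Both injured groups lie between 7.11 and 9.36, and all intact libraries lie between 89.1 and 197.

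Per kilobase of exon (GENCODE M21), the order of levels changed with injury. Exon length was the union over all annotated transcripts of a gene, such as 3798 bases for H2-Aa and 2568 for H2-Ab1. The order between genes depends on this length, which can exceed that of the main transcript. In dKO nerve at 5 days Cd74 led with 450.6 ± 135 CPM per kilobase, before H2-Eb1 with 134 ± 46.9, H2-Ab1 with 120.2 ± 27.3 and H2-Aa with 71.8 ± 15.7 (SD, n = 3). The libraries of H2-Eb1 and H2-Ab1 overlapped, and the other neighbours in this order did not. H2-DMb1 followed with 24.1 ± 4.58 and H2-DMa with 8.08 ± 0.997, and Ciita was last with 1.78 ± 0.929. In dKO intact nerve Cd74 had 92.3 ± 17.7 and H2-DMb1 76.8 ± 5.71 CPM per kilobase, and their libraries overlapped. H2-DMa had 29.7 ± 5.14, H2-Eb1 23.9 ± 2.78, H2-Ab1 23.7 ± 4.63 and H2-Aa 12.3 ± 1.51, so that H2-DMb1 stood above each chain of the surface molecules in every library. H2-DMa, H2-Eb1 and H2-Ab1 overlapped as neighbours in this order. Control nerve gave 337.6 ± 50.8 for Cd74 and 20.6 ± 1.93 for H2-DMb1 at 5 days, and 103.5 ± 41.9 and 72.2 ± 3.44 when intact.

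Between genotypes at 5 days, 0 of the 7 genes passed the test, against 12.1% of all tested genes (3.12% called higher and 8.97% called lower). All 7 averaged higher in dKO than in control nerve, with log2 differences of 0.20 to 0.54 and a median of 0.41, beside -0.02 over all tested genes. In the same comparison 4 of 7 Schwann cell markers were called lower in dKO nerve and 0 higher, with a median of -0.73. Members of 1 list share libraries, and dKO replicate 4, the smallest library, was the highest of its group for all 7. H2-DMa came closest, with a log2 difference of 0.41 (95% interval 0.11 to 0.71, adjusted p 0.0717, edgeR). Its 3 dKO libraries, at 25.7 to 31.8 CPM, lay above the 3 control libraries, at 19.4 to 22.8 CPM, as did 12.6% of all tested genes. H2-DMa was the 1 gene of the 7 with an unadjusted p under 0.05, as 27.1% of all genes had, by edgeR, DESeq2 and limma-voom alike, and each tool called 0 of 7. With upper-quartile scaling H2-DMa passed, at 0.51 (adjusted p 0.0359).

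For the chains the intervals were wide. The log2 difference of dKO against control nerve at 5 days was 0.21 for H2-Aa (95% interval -0.39 to 0.82), 0.20 for H2-Ab1 (-0.36 to 0.75) and 0.42 for H2-Eb1 (-0.23 to 1.08). Cd74 differed by 0.42 (-0.24 to 1.08), H2-DMb1 by 0.22 (-0.05 to 0.49) and Ciita by 0.54 (-0.14 to 1.22). These intervals still hold a doubling of H2-Eb1, Cd74 and Ciita as well as no difference. Without dKO replicate 4 the differences were 0.03 for H2-Aa, 0.00 for H2-Ab1, 0.11 for H2-Eb1, 0.14 for Cd74 and 0.05 for Ciita. In a fit with a term for the library set, added after seeing the data, H2-DMa differed by 0.28 (adjusted p 0.667) and 0 of 7 genes passed. That fit compares the dKO libraries with control replicate 4 alone.

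In intact nerve 0 of 7 genes passed the test between genotypes, against 0.00447% of all tested genes, and 0 of 7 had an unadjusted p under 0.05 by edgeR, DESeq2 or limma-voom, as 5.8% of all genes had by edgeR. The log2 differences of dKO against control nerve ran from -0.43 for H2-Aa (95% interval -1.05 to 0.18) to 0.09 for H2-DMb1 (-0.18 to 0.36), with a median of -0.14 beside -0.01 over all tested genes. The chains spread most in the control group, where replicate 2 was the highest for all 7 genes and replicate 3 the lowest for H2-Aa, H2-Ab1, H2-Eb1, Cd74 and Ciita. The difference between the injury changes of dKO and control mice also passed for 0 of 7 genes, against 2.9% of all tested genes. It was above 0 for all 7, from 0.13 for H2-DMb1 (-0.25 to 0.51) to 0.78 for H2-Eb1 (-0.15 to 1.71, adjusted p 0.407). H2-Eb1 had an unadjusted p under 0.05 for this difference by DESeq2, and 0 of the 7 did by edgeR, as 15.8% of all genes did, and by limma-voom.

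Injury in dKO nerve is also affected by the library set, since all injured dKO libraries belong to it. A term for the set cannot settle this, since its size rests on control replicate 4 against the other injured control libraries. With a term for the set, the 5 rises and 2 falls held, with log2 changes of 2.57 for H2-Aa (adjusted p 0.0111), 2.31 for Cd74 (adjusted p 0.0258), 2.03 for Ciita (adjusted p 0.0376) and -2.07 for H2-DMa. Without dKO replicate 4 they were 2.36 for H2-Aa (adjusted p 0.000178), 2.01 for Cd74, 1.10 for Ciita (adjusted p 0.00713) and -1.99 for H2-DMa.

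Within groups, the surface chains and Cd74 varied together from library to library. Over the 12 libraries, deviations of log2 CPM from the group mean gave a Pearson r of 0.947 to 0.979 among H2-Aa, H2-Ab1, H2-Eb1 and Cd74. H2-DMa and H2-DMb1 had an r of 0.676 with each other and of 0.181 to 0.542 with these 4 genes. Ciita had an r of 0.709 to 0.856 with the 4, 0.829 with H2-DMb1 and 0.375 with H2-DMa. These values describe 12 libraries that share depth, library set and tissue makeup.

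**Figure D4:**
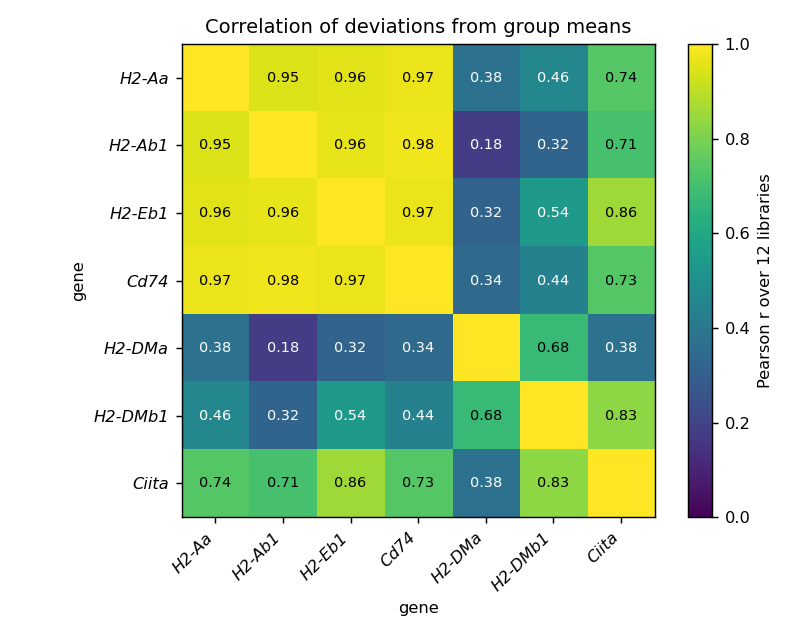
Pearson r between the 7 genes over 12 libraries, from log2 CPM minus the group mean. H2-Aa, H2-Ab1, H2-Eb1 and Cd74 form a block of 0.947 to 0.979, and H2-DMa and H2-DMb1 stand outside it.

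The 10 genes whose deviations were most like the mean of the 6 members other than Ciita were Mdk (Pearson r 0.954), Wdfy4 (0.944), Nus1 (0.903), Myo1f (0.901), Apobec1 (0.899), Aimp1 (0.889), Tpr (0.888), Sfpi1 (0.884), Ghitm (0.88) and Trem2 (0.879), over the 12 libraries. Against H2-Aa, H2-Ab1, H2-Eb1 and Cd74 alone the nearest were Mdk (0.965), Wdfy4 (0.939) and Myo1f (0.91), and 5 of the 10 genes were shared with the first list. Against the H2-DM pair alone the nearest were Mphosph8 (0.989), Dnajc2 (0.928) and Taf13 (0.918), and 0 of the 10 were shared. Ranking by Spearman's rho kept 4 of the first 10.

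Of the class II genes outside the 7, the H2-DO chains, which hold H2-DM in check in B cells and dendritic cells, were higher in injured nerve. H2-Ob rose by a log2 of 3.39 in dKO (adjusted p 0.00034) and 2.02 in control nerve (adjusted p 0.00766). H2-Oa had 67, 54 and 47 counts in injured dKO libraries and 0, 0 and 7 in intact ones, and 44, 106 and 29 counts in injured control libraries and 1, 0 and 0 in intact ones (adjusted p 0.000908 and 0.000211, edgeR). H2-Eb2, with 1 to 14 counts, and H2-Ea-ps did not pass the filter. The inhibitor of H2-DM and H2-DM itself thus moved in opposite directions, with H2-Ob at 3.59 to 6.41 CPM in injured dKO nerve.

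After injury, calls among the factors that sit with Ciita on class II promoters were near or below the shares of all tested genes. Those shares were 22% called higher and 22.6% called lower in dKO nerve, and 24.4% and 22.4% in control nerve. Of 7 tested (Rfx5, Rfxap, Rfxank, Nfya, Nfyb, Nfyc and Creb1), 0 rose and 2 fell after injury in dKO nerve, Nfyb by 0.49 and Rfxap by 0.53 on the log2 scale (adjusted p 0.0106 and 0.0471). In control nerve 1 rose, Nfya by 0.30 (adjusted p 0.0371), and 0 did without control replicate 1 at 5 days. Without control replicate 4, 2 were called higher and 1 lower. A term for the library set gave the same counts and is no separate check, since here it takes up control replicate 4 alone. At 5 days Nfya, the NF-Y subunit that contacts the CCAAT sequence, was lower in dKO than in control nerve, as was Rfxank, an RFX subunit. The log2 differences were -0.42 for Nfya (adjusted p 0.0235) and -0.36 for Rfxank (adjusted p 0.0446). Of all tested genes, 8.97% were called lower in this comparison. Without control replicate 1, or with a term for the library set, 0 of the 7 differed.

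Of 5 tested enzymes that cut Cd74 or process antigens, 4 rose in both genotypes, with log2 changes in dKO and control nerve of 3.02 and 3.23 for Ctss, the protease that removes the last part of Cd74 in antigen-presenting cells, 1.81 and 2.11 for Lgmn, an endosomal endopeptidase, 1.36 and 1.56 for Ifi30, the thiol reductase of endosomes, and 0.75 and 1.11 for Ctsl. The adjusted p were 2.65e-08 for Lgmn and 7.01e-06 for Ctss in dKO nerve. Of all tested genes, 22% were called higher in dKO and 24.4% in control nerve, and 22.6% and 22.4% were called lower. The fifth, Sppl2a, which clears the membrane stub of Cd74, had a log2 change of -0.29 in dKO nerve (adjusted p 0.0655). In control nerve it fell by 0.33 (adjusted p 0.0384), and it was not called without control replicate 1 or replicate 4 at 5 days. At 5 days Ifi30 was lower in dKO nerve by a log2 of -0.39 (adjusted p 0.0406), a call that was lost in the fit with a set term and without control replicate 1. Between genotypes at 5 days, 8.97% of all tested genes were called lower. The ubiquitin ligases Marchf1 and Marchf8 could not be used, since such names stood as dates in the table.

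Of 7 costimulatory ligands, 4 rose and 1, Cd80, fell in dKO nerve, and 1 rose in control nerve. Cd40 rose in both, by a log2 of 2.16 (adjusted p 0.00515) in dKO and 1.97 (adjusted p 0.00793) in control nerve. Cd86, the T cell activating ligand, rose by 1.06 in dKO (adjusted p 0.0193) and had a change of 0.49 in control nerve (adjusted p 0.252). The 1 of 7 in control nerve is no larger a share than the 24.4% of all tested genes called higher. In dKO nerve 22% of all tested genes were called higher and 22.6% lower. With a term for the library set 0 of the 7 were called in dKO nerve, and their median log2 change was 0.94, against 1.06 without the term.

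Interferon gamma is the classical inducer of Ciita. Ifng itself had 0 to 4 counts in every library and was not tested. Of 11 other genes of its pathway, 4 rose and 1 fell in dKO nerve, and 2 rose and 2 fell in control nerve, or 4 and 2 without control replicate 1. In control nerve these shares are near or below the 24.4% and 22.4% of all tested genes called higher and lower. In dKO nerve 22% of all tested genes were called higher and 22.6% lower. A term for the library set left 2 called higher and 0 called lower in dKO nerve. Irf8, a myeloid transcription factor, rose by a log2 of 2.22 in dKO and 2.66 in control nerve, and Socs1, a feedback inhibitor, by 1.63 and 2.28. Jak2, the receptor kinase, fell by 0.71 and 1.13. Irf1, a direct target of the pathway, was higher in dKO than in control nerve at 5 days by a log2 of 0.61 (adjusted p 0.00344), a call that was lost in the fit with a set term.

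Genes of class I presentation had smaller median changes. Of 13 tested genes, 7 rose and 0 fell in dKO nerve and 3 rose and 0 fell in control nerve, with median log2 changes of 0.50 and 0.35. The 3 of 13 in control nerve is close to the 24.4% of all tested genes called higher, and 22% were called higher in dKO nerve. H2-D1, a class I heavy chain, rose by 0.72 (adjusted p 0.0102) in dKO and 0.80 (adjusted p 0.00476) in control nerve, and Pdia3, a chaperone of class I loading, by 0.97 and 1.16. In the fit with a set term, 1 of the 13 was called in dKO nerve, at a median log2 change of 0.47, and without control replicate 1 at 5 days 5 rose in control nerve.

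Markers of cells that could carry class II were counted in the same fits. For the macrophage, dendritic cell, B cell and T cell lists, the background in dKO nerve was 22% of all tested genes called higher and 22.6% called lower. In control nerve it was 24.4% and 22.4%. Of 14 macrophage markers, 9 rose in each genotype, Cx3cr1, Ly6c2, Cd163 and Lyve1 were not called, and 1, Mertk, fell in dKO nerve by 0.61 (adjusted p 0.0184). Their summed level ran from 935.6 to 1126 CPM in injured and 394 to 540.2 CPM in intact dKO nerve, and from 886 to 1241 CPM in injured and 390.5 to 505 CPM in intact control nerve. C1qa, a complement subunit of resident and recruited macrophages, rose by a log2 of 2.25 in dKO and 2.92 in control nerve, and Ccr2, the receptor of recruited monocytes, by 3.38 and 2.90. At 5 days Cd68, a lysosomal protein of macrophages, was lower in dKO than in control nerve by a log2 of -0.87 (adjusted p 0.0373), a call that was lost in the fit with a set term and without control replicate 1 or replicate 4.

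Of 11 dendritic cell markers, 8 rose and 0 fell in dKO nerve and 7 rose and 1 fell in control nerve. The sums were 158 to 202 CPM in injured and 80.9 to 111 CPM in intact dKO nerve, and 121 to 192 CPM in injured and 63.6 to 78.2 CPM in intact control nerve. Flt3, the growth factor receptor of dendritic cells, rose by a log2 of 2.56 in dKO and 2.41 in control nerve. Zbtb46, a factor of classical dendritic cells, fell by 0.92 in control nerve (adjusted p 0.000107), had a change of -0.27 in dKO nerve (adjusted p 0.148) and was higher in dKO nerve at 5 days by 0.70 (adjusted p 0.00587), the last call being lost in the fit with a set term.

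Of 6 tested B cell markers, 3 rose in dKO and 4 in control nerve, with sums of 57.0 to 86.4 CPM in injured and 35.7 to 56.3 CPM in intact dKO nerve, and 62.7 to 109 CPM in injured and 28.3 to 52.9 CPM in intact control nerve. Cd79b, a signalling chain of the B cell receptor, rose by a log2 of 2.05 in dKO nerve (adjusted p 0.00331). In control nerve its rise was 1.39 (adjusted p 0.0254). Pax5, a B cell transcription factor, changed by 2.74 and 2.04. Its control libraries overlapped, at 0.157 to 3.44 CPM in injured and 0.439 to 0.537 CPM in intact nerve. In dKO nerve Cd79a changed by -0.66 (adjusted p 0.51) and Ighm by 0.89 (adjusted p 0.242). In control nerve 1 of the 6 rose without control replicate 1 at 5 days, and 2 rose in the fit with a set term. Of 10 tested T cell markers, 6 rose in dKO and 4 in control nerve, at sums of only 17 to 22.3 CPM in injured and 6.25 to 8.29 CPM in intact dKO nerve, and 13.9 to 17.9 CPM in injured and 3.84 to 8.19 CPM in intact control nerve. In the fit with a term for the library set, 2146 of the 22384 tested genes were called higher in dKO nerve. Of the markers, 7 macrophage, 5 dendritic cell, 1 B cell and 0 T cell ones rose there. The part of these cells in the class II changes was not tested.

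Of 7 Schwann cell markers, 1 rose and 4 fell in dKO nerve, and 2 rose and 4 fell in control nerve. Of all tested genes, 22% were called higher and 22.6% lower in dKO nerve, and 24.4% and 22.4% in control nerve. S100b, a calcium-binding protein of Schwann cells, fell by 1.91 on the log2 scale in dKO and by 0.84 in control nerve, and Sox10, the transcription factor of their lineage, fell by 1.72 and 0.77. Ngfr, a receptor of repair Schwann cells, rose by 3.27 and 4.41. The summed level was 1506 to 1649 CPM in injured and 2402 to 2651 CPM in intact dKO nerve. In control nerve it was 2594 to 3858 CPM when injured and 2415 to 3403 CPM when intact, and these overlapped. This sum pools markers that fell with Ngfr, which rose in both genotypes, and Foxd3, which rose in control nerve. Ngfr averaged 1636 CPM in injured and 76.7 CPM in intact control nerve, against 514 and 53.4 CPM in dKO nerve. The overlap thus does not mean that the markers kept their level in control nerve, where 4 of 7 fell. In the fit with a set term, 2 of the 7 fell in dKO nerve. At 5 days S100b, Sox10, Ngfr and Foxd3 were lower in dKO than in control nerve, and 8.97% of all tested genes were called lower. The median log2 difference of the 7 was -0.73, and -0.29 in the fit with a set term. For this comparison that fit rests on control replicate 4 alone. The part of these cells in the fall of H2-DMa and H2-DMb1 was not tested.

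**Figure D5:**
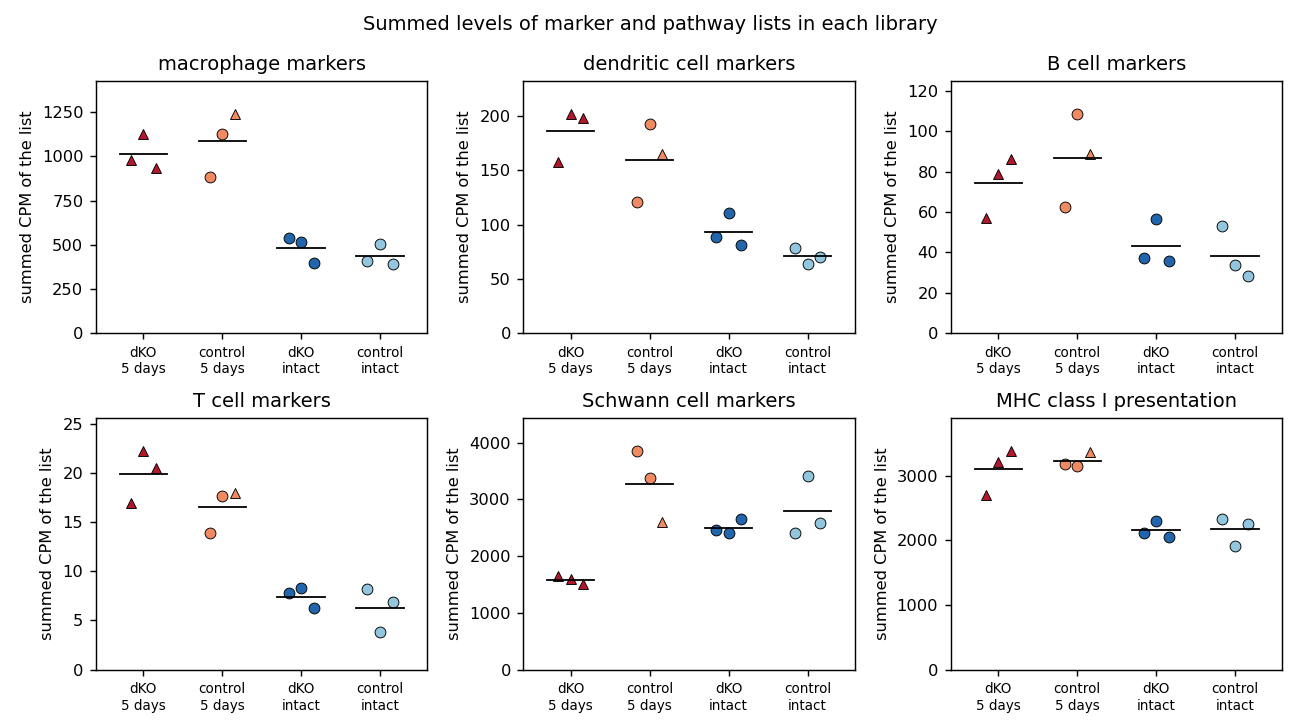
Summed CPM of 5 marker lists and of the class I presentation genes by library and group, on linear axes from 0, with points for libraries (triangles for the second library set) and bars for group means. Macrophage, dendritic cell, B cell and T cell sums are higher in injured nerve in both genotypes. The Schwann cell sum is lower in injured dKO nerve and overlaps between injured and intact control nerve. It pools markers that fell in both genotypes with Ngfr, which rose in both, and Foxd3, which rose in control nerve.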

How the data were processed

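RNA of 12 mouse sciatic nerve libraries was analysed, from polyA RNA and an Ion Torrent total RNA kit per the labels. The deposited raw table holds whole-number counts of reads per gene model by the authors, and their deposited normalized table is a signal, counts divided by 1 size factor per library, which served as an alternative. Per the submitters' processing notes DESeq2, R 4.2.1 and mm10 were used, with aligner, counter, strand and annotation not given in the sources used here. Tests used edgeR 4.0.16 under R 4.3.3 on the counts (filterByExpr with a minimum count of 10, TMM factors, quasi-likelihood F-tests, 1 mean per group over 12 libraries, Benjamini-Hochberg adjustment over 22384 genes, threshold 0.05). Every adjusted p is from this fit unless another is named. The method was tested on simulated data.

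The members and lists were chosen with earlier results of these data known. Named were the 7 members, Tfeb and Tfe3, up to 4 genes per list with the smallest p, and the 10 genes with the most similar deviations at a mean log2 CPM of at least 1. Where a sentence names another gene, it was chosen after its values were seen. Alternatives were DESeq2 1.42.0, limma-voom (limma 3.58.1), limma-trend on the authors' values (log2 of the value plus 1), 2 other scalings, other filters, only the groups compared, replicate numbers as a block, leaving out each library, and, added later, the library set as a term. Depth limits genes near 0 counts. Of the names in the table, 25 looked like dates. Some items are not reported here, and the lists were counted without them.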

Additional observations from a re-analysis of the deposited data

Results flagged for a closer look

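The injury changes of 2 Schwann cell markers differed between dKO and control nerve by the edgeR test of the difference itself, with Benjamini-Hochberg adjustment over 22384 genes. For Ngfr, a receptor of repair Schwann cells, the difference was -1.15 (adjusted p 0.0179), with changes of 3.27 in dKO and 4.41 in control nerve. Foxd3, a transcription factor of the Schwann cell lineage, had a difference of -1.62 (adjusted p 0.00309), with changes of 0.01 in dKO and 1.63 in control nerve. With a term for the library set 0 of the 7 Schwann cell markers passed, the difference being -0.83 for Ngfr (adjusted p 0.258) and -1.48 for Foxd3 (adjusted p 0.0501). All injured dKO libraries belong to the second library set, and genotype and set can hardly be told apart in these differences. No class II gene was among the results picked out in this way.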

How the results depend on the processing

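The rises of H2-Aa, H2-Ab1, H2-Eb1 and Cd74 and the falls of H2-DMa and H2-DMb1 after injury kept their direction and passed the threshold under every alternative run, in both genotypes, and so did the rise of Ciita in dKO nerve. Whether equal replicate numbers mark 1 mouse is not stated. Deviations of equally numbered injured and intact libraries had correlations of -0.0177 to 0.088 in dKO and -0.086 to -0.0119 in control nerve. Deviations from means of 3 libraries cannot decide on pairing. Control replicate 1 was no pair, with Xist counts of 10712 at 5 days and 3 when intact and summed Y-linked counts of 244 and 3068. With the replicate numbers as a block, Ciita in control nerve had a log2 change of 0.92 (adjusted p 0.0673). H2-DMa and H2-DMb1 then differed by -0.060 and -0.017 between genotypes in intact nerve, and no other call of the 7 genes changed. The difference of injury changes of Ngfr was -1.15 with the block (adjusted p 0.0792), and that of Foxd3 still passed. The block called 1386 genes between genotypes at 5 days (2707 without it), 410 for the difference of injury changes (650) and 0 in intact nerve (1). The library set as a term called 4299 genes for injury in dKO nerve (9997 without it), 515 between genotypes at 5 days, 172 for the difference and 3 in intact nerve, and 43.6% of the calls for the difference were then higher. Genes called in intact nerve numbered 7 by DESeq2, 0 by limma-voom, 3 on the authors' values, 2 with either other scaling, 5 with no filter, 0 with a stricter one and 0 with only the groups compared. DESeq2 called 1091 genes for the difference. Upper-quartile scaling called 1 of the 7 genes, H2-DMa, higher at 5 days. It moved the median of all genes by 0.142 (injury in dKO nerve), 0.108 (genotype at 5 days) and 0.128 (difference), and the share of calls that were higher was 60.7%, 44.4% and 43.1%, against 49.3%, 25.8% and 25.4% with TMM. Leaving out 1 library gave 1577 (without dKO replicate 3) to 4225 genes (without control replicate 4) at 5 days, 352 to 1276 for the difference without the same 2 libraries, and 0 to 2 in intact nerve. Signs turned only in comparisons without a call. Leaving out 1 library gave differences in intact nerve of -0.028 to 0.20 for H2-DMa, -0.39 to 0.14 for H2-Ab1, -0.44 to 0.16 for Cd74 and -0.19 to 0.19 for Ciita (0.0053 by limma-voom), and for the difference of injury changes -0.033 to 0.23 for H2-DMb1. The cause was not tested. Depth limits H2-Oa, H2-Eb2, H2-Ea-ps and Ifng most.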
